A study of Mus musculus with 9 samples.

Results

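The MYC network was described in murine B cells of the germinal center (GC) from all 21 probe sets of the array that the platform annotation gives to 1 of 9 genes: the activators Myc and Mycn, the shared partners Max and Mlx, and the antagonists Mxd1, Mxi1, Mxd3, Mxd4 and Mnt. The array held 45037 probe sets besides its controls. Of the 21, 14 probe sets of 8 genes reached the median signal of their array on at least 3 of the 9 arrays and were tested. The 7 others, among them all 3 of Mycn, were below it on all 9 arrays and are given as signals only. The rule takes every probe set of a named gene whatever its signal.

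GC B cells are follicular B cells that, once they have met antigen, divide fast, mutate their antibody genes and compete for T cell help. They were sorted as B220hi, PNAhi, CD95hi cells from spleens of 10-week-old mice, which had received 2 rounds of sheep red blood cells by injection, on day 12 of that schedule. Each genotype had 3 arrays. WT mice were FOXO1+/+, HET mice FOXO1f/+ and KO mice FOXO1f/f, the floxed allele being one that Cre recombinase can delete. Every mouse, WT included, carried Cg1-Cre, which is active in GC B cells. A floxed allele is deleted only in cells where the recombinase has acted, so a sorted sample can hold cells that kept it. The labels give 1 animal per array, whereas the design text speaks of pooled spleen cells. The sources used here give neither sex nor litter nor hybridisation batch.

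MYC switches on genes for growth and division when paired with MAX on the E-box, the DNA letters CACGTG. The MXD proteins and MNT compete for MAX and for the same site and bring in the SIN3 and histone deacetylase corepressor, so that a cell's state depends on the balance of both sides. MLX is a second partner, used by some MXD proteins, by MNT and by glucose-sensing factors. In GCs, MYC protein is known to mark the light zone B cells that T cells have just selected, a minority of all GC B cells. In bulk sorted cells, fewer cells with a transcript and less transcript per cell cannot be told apart.

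Some network genes have the network's own binding letters beside their start. RefSeq promoter windows (GRCm38.p6, 250 bases before to 50 after a start site) were given for 8 of the 9 genes, 10 windows in all. E-boxes, which read the same on both strands, stood in those of Max, Mlx, Mxd4 and Mnt (4 of 10 windows), against 7.15% of the 32851 windows of all genes. The 7-letter FOXO consensus GTAAACA, searched on both strands, stood in 1 of the 10 windows, one of the 3 of Mxi1, against 3.65% of all windows. The 30 bases around each match are shown because they are the letters at which MYC, MXD and FOXO proteins can bind, with the motif in capitals. A match is a description of the letters, not of binding in these cells.
Max, minus strand of chr12:76962234-76962263, E-box beginning 3 bases before the start site: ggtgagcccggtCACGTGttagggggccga
Mlx, plus strand of chr11:101087238-101087267, 40 bases before: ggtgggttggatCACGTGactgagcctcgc
Mxd4, minus strand of chr5:34187912-34187941, 219 bases before: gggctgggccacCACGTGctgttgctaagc
Mnt, plus strand of chr11:74830789-74830818, 123 bases before: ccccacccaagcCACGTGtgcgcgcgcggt
Mxi1, plus strand of chr19:53329453-53329482, FOXO consensus beginning 231 bases before the start site: cgcgcggagaaGTAAACAaaccgcgcgcgg

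The 9 arrays were scaled alike, and the median signal lay between 47.4 and 48.0 on the KO arrays and between 42.9 and 45.0 on the others. Pearson correlations over log2 signals of tested probe sets were 0.978 to 0.989 between arrays of a genotype and 0.970 to 0.987 between genotypes. Foxo1, the targeted gene, had a mean signal in KO that was 15.9% to 19.0% of WT on 3 of its 4 probe sets, with HET at 55.5% to 65.4%. The dimmest one was not lower in KO (50.9 ± 6.13 in WT, 69.2 ± 13.6 in KO; SD, n = 3). Signals were tested as log2(signal + 2.09) with limma over all 23344 probe sets that passed the filter, and a call means a Benjamini-Hochberg adjusted p under 0.05. The fold understates the change of dim probe sets. Whether samples shared a pool of cells is not settled by the sources. The p-values set a difference against the spread within genotypes among these 9 samples only. Limma draws that spread towards its trend over all tested probe sets.

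KO vs WT, the comparison in the series title, asks how the network stands in GC B cells without FOXO1. One member was called: Mxi1, an antagonist gene, was lower in KO. Myc, Max, Mlx, Mxd1, Mxd3, Mxd4 and Mnt did not pass. Called were 1 of 14 network probe sets and 7.65% of all tested probe sets (1785 of 23344), so the network's share was near the background. An unadjusted p under 0.05 was reached by 3 of the 14 (21.4%) and by 22.5% of all. KO and WT signals did not overlap for 3 of 14 members (21.4%), Myc, Mxi1 and Mnt, against a background of 26.5%. Calls over all probe sets split into 924 higher and 861 lower, and into 671 and 1185 when each array was centred on its median. The median log2 difference was -0.0043 over the network and 0.034 over all tested probe sets.

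Myc encodes the activator after which the network is named and has 1 probe set on the array. Its signal was 607.6, 593.1 and 595.2 on the WT arrays, 631.9, 553.8 and 650.9 on the HET arrays, and 614.6, 735.0 and 677.8 on the KO arrays. All KO arrays lay above all WT arrays, the lowest KO array by a small margin, and the HET arrays spread to both sides of WT. The log2 difference was 0.17 in KO vs WT (95% interval -0.050 to 0.39, limma adjusted p = 0.354). Relative to WT, mean signals stood at 113% in KO and 102% in HET. The interval leaves room for a rise of up to 0.39 and does not show equal levels.

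Mycn, the related activator best known from neural and embryonic cells, stayed below the array median on all 9 arrays with each of its 3 probe sets. Their signals ranged from 4.56 to 39.3, from 0.680 to 12.1 and from 1.40 to 15.4. The highest of these was the signal of KO replicate 2 on 1 probe set, where the 8 other arrays stood at 14.6 or lower. No fold is given for signals this dim.

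**Figure D1:**
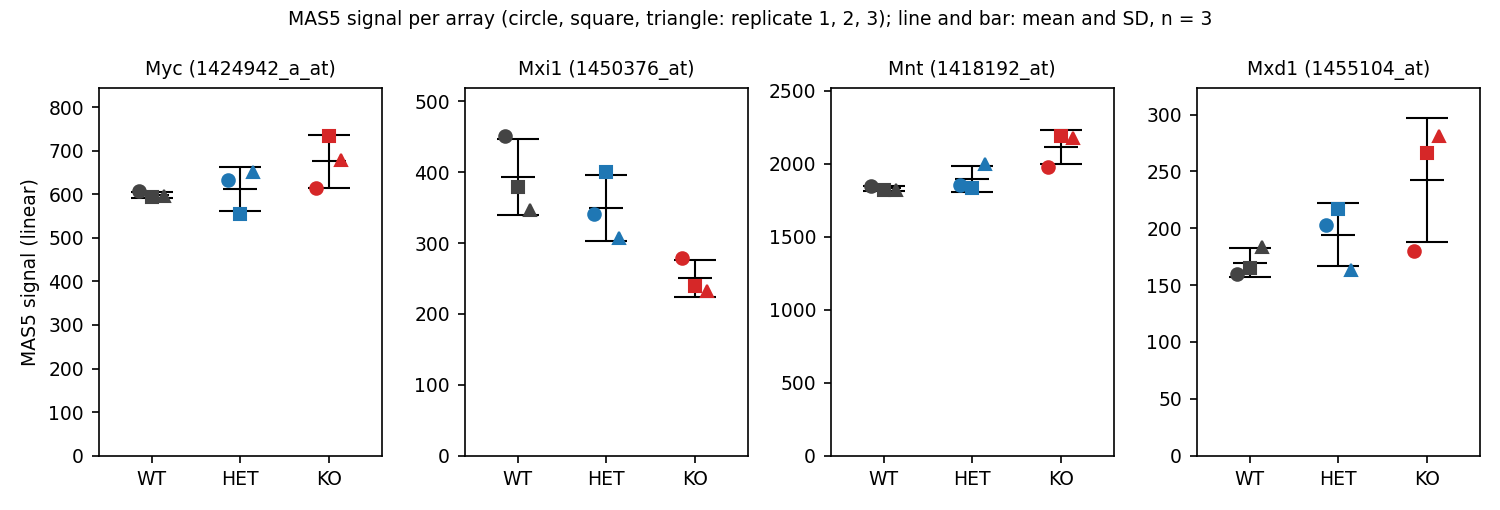
MAS5 signal (linear, y axis from 0) of 4 network probe sets on each array, by genotype; symbols mark replicates, and the line and bar give the mean and SD of 3 arrays. Mxi1 is lower on all KO arrays than on any WT or HET array, Myc and Mnt are higher on all KO than on all WT arrays by less, and Mxd1 overlaps.

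Max encodes the partner with which MYC binds DNA and for which the MXD proteins and MNT compete. Its 1 probe set gave 2657, 2866 and 2789 on the WT arrays, 2942, 2649 and 2799 on the HET arrays, and 2547, 2914 and 2691 on the KO arrays. The 3 genotypes overlapped throughout. The log2 difference in KO vs WT was -0.030 (95% interval -0.18 to 0.12, limma adjusted p = 0.850), the narrow interval of a probe set with little spread between replicates.

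Mlx encodes the alternative partner. Mean WT, HET and KO signals were 644 ± 43.9, 583 ± 42.9 and 627 ± 57.9 on its brighter probe set and 94.4 ± 11.0, 100.4 ± 5.02 and 97.4 ± 6.13 on its dimmer one (SD, n = 3). Differences in KO vs WT were -0.040 (95% interval -0.27 to 0.19) and 0.049 (-0.34 to 0.43), with limma adjusted p = 0.869 and 0.907. The genotypes overlapped on both probe sets.

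Mxi1, also called MXD2, encodes an MXD antagonist, and the gene makes transcripts from several start sites. The tested probe set gave 451.9, 379.8 and 347.1 on the WT arrays, 340.9, 399.9 and 307.6 on the HET arrays, and 279.3, 238.8 and 232.3 on the KO arrays. Every KO array lay below every WT and HET array, and HET overlapped WT. Mxi1 fell by 0.64 (log2) from WT to KO (SE 0.14, 95% interval -0.96 to -0.33, limma adjusted p = 0.0178), a 1.56-fold lower level, with the KO mean at 63.7% of WT. In HET vs WT the difference was -0.17 (95% interval -0.48 to 0.15, limma adjusted p = 0.999), and in KO vs HET it was -0.48 (limma adjusted p = 0.0794).

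The call of Mxi1 was lost in 4 of the 9 fits that left out 1 array: without WT replicate 1 (limma adjusted p = 0.0689), WT replicate 2 (0.0564), KO replicate 2 (0.0601) or KO replicate 3 (0.0518). The log2 difference stayed between -0.73 and -0.54 in those 9 fits. The gene's other probe set was below the array median everywhere, at 5.20 to 25.8, so a second measure of the fall is missing. Which transcripts of the 3 promoter windows the probe set detects was not analysed here, and the FOXO letters shown above therefore cannot be tied to the measured transcript.

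Mxd1 encodes the MXD antagonist formerly called MAD1, known to rise as cells stop dividing. On 1 probe set its signal was 159.7, 165.3 and 183.8 in WT, 202.7, 216.7 and 163.5 in HET, and 180.4, 266.1 and 281.6 in KO. KO replicates 2 and 3 stood above every other array, while KO replicate 1 lay within the WT range. The log2 difference of 0.49 (95% interval 0.085 to 0.89) did not pass in KO vs WT (limma adjusted p = 0.139). Without KO replicate 1 it was 0.69 and called (limma adjusted p = 0.0345). That was the 1 call among 20 alternative fits of this probe set, in which the limma adjusted p reached 0.339.

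On the brighter Mxd1 probe set, mean WT, HET and KO signals were 238 ± 46.7, 282 ± 12.5 and 278 ± 61.7 (SD, n = 3), a difference of 0.22 in KO vs WT (95% interval -0.16 to 0.60, limma adjusted p = 0.503). Both probe sets thus had positive values, 1 of them with an interval clear of 0 before adjustment, and neither was called. The one not tested stood between 3.47 and 13.4, below the array median everywhere.

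Mxd3 encodes the MXD protein known to be made during the S phase of dividing cells. Its 3 probe sets gave 3167 ± 422, 1461 ± 49.2 and 234 ± 14.8 in WT, and 3445 ± 278, 1487 ± 152 and 195 ± 37.6 in KO (SD, n = 3). Differences in KO vs WT were 0.13, 0.021 and -0.27 (limma adjusted p = 0.640, 0.933 and 0.396), so the 3 did not share a sign. On the dimmest, the HET arrays at 147.6, 190.3 and 208.7 all lay below the WT arrays at 226.7, 251.0 and 224.2, while the KO arrays at 238.3, 179.5 and 168.4 overlapped WT. Its HET vs WT difference was -0.37 (95% interval -0.75 to 0.011, limma adjusted p = 0.999), and the other probe sets of the gene gave 0.17 and -0.11.

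Mxd4 encodes an MXD antagonist linked to differentiated and resting cells. Its brightest probe set gave 2234, 2176 and 2168 on the WT arrays, 2589, 2271 and 1864 on the HET arrays, and 1858, 1843 and 2663 on the KO arrays. KO replicate 3 was the highest KO array on each of the 3 tested probe sets, and HET replicate 1 the highest HET array. WT replicate 3 was the lowest WT array on the 2 brighter probe sets and the highest on the dimmest. Differences in KO vs WT were -0.070, -0.16 and -0.11 (limma adjusted p = 0.823, 0.653 and 0.842), each smaller than its SE of 0.14, 0.18 and 0.24.

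Mnt encodes a widely present antagonist of MYC outside the MXD subfamily. Its signal was 1849, 1822 and 1819 on the WT arrays, 1854, 1831 and 1998 on the HET arrays, and 1979, 2193 and 2175 on the KO arrays. All KO arrays were above all WT arrays, and HET replicate 3 reached into the KO range. The log2 difference of 0.21 in KO vs WT (SE 0.068, 95% interval 0.059 to 0.36) did not pass (limma adjusted p = 0.0892). Of 22 alternative fits 1 called it, the fit on the mean of each gene's tested probe sets (limma adjusted p = 0.0485). Mnt entered that fit with its 1 tested probe set, so its difference was the same 0.21. The largest limma adjusted p among the alternatives was 0.237. A fit on 1 probe set per gene did not call Mnt. The second Mnt probe set was below the array median everywhere, at 3.21 to 13.6.

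**Figure D2:**
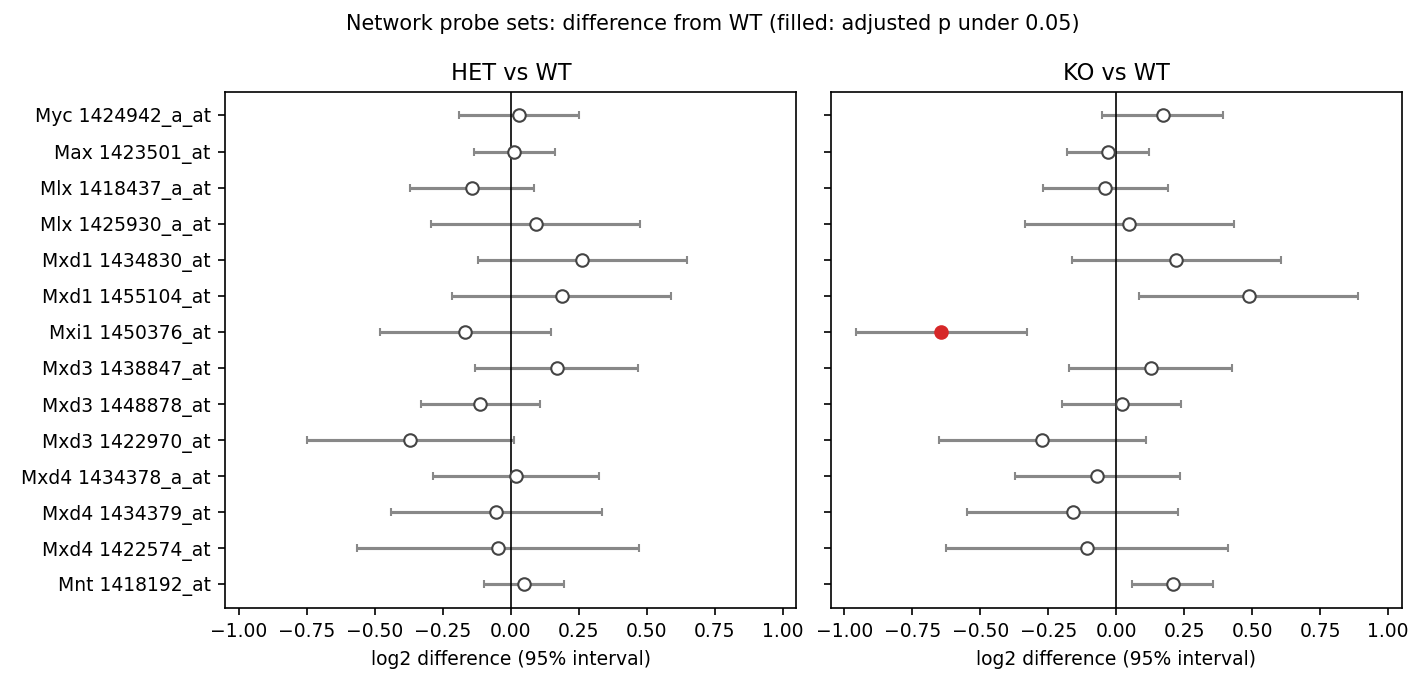
Log2 difference from WT (x axis) of the 14 tested network probe sets (y axis) in HET and KO, with 95% intervals from limma; a filled point has an adjusted p under 0.05. The 1 filled point is Mxi1 in KO vs WT, and the interval of Mnt and of 1 Mxd1 probe set in KO vs WT lies above 0.

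Members differed in how closely replicates agreed. The standard deviation within a genotype, on the log2 scale, was 0.062 for Mnt and 0.078 for Max, smaller than in all but 7.40% and 14.4% of tested probe sets. It was 0.22, 0.26 and 0.33 for the 3 Mxd4 probe sets, at or above 65.7%, 73.5% and 84.3% of tested probe sets. The median over all tested probe sets was 0.17. The KO vs WT intervals of Mnt and Max were accordingly narrow and that of the dimmest tested Mxd4 probe set was wide (-0.63 to 0.41).

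Summed up by role, the log2 deviation from the WT mean on the KO arrays was 0.17 ± 0.13 for the activator Myc, -0.035 ± 0.053 for the 2 shared partners and -0.031 ± 0.10 for the 5 antagonists (SD, n = 3), each gene by its brightest tested probe set. On the HET arrays the values were 0.029 ± 0.12, -0.065 ± 0.082 and 0.066 ± 0.10. These means are a description with no test. The antagonists did not move as a block in KO: Mxi1 was lower, Mnt and Mxd1 had positive values and Mxd4 negative ones that did not pass, and the 3 Mxd3 probe sets differed in sign.

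**Figure D3:**
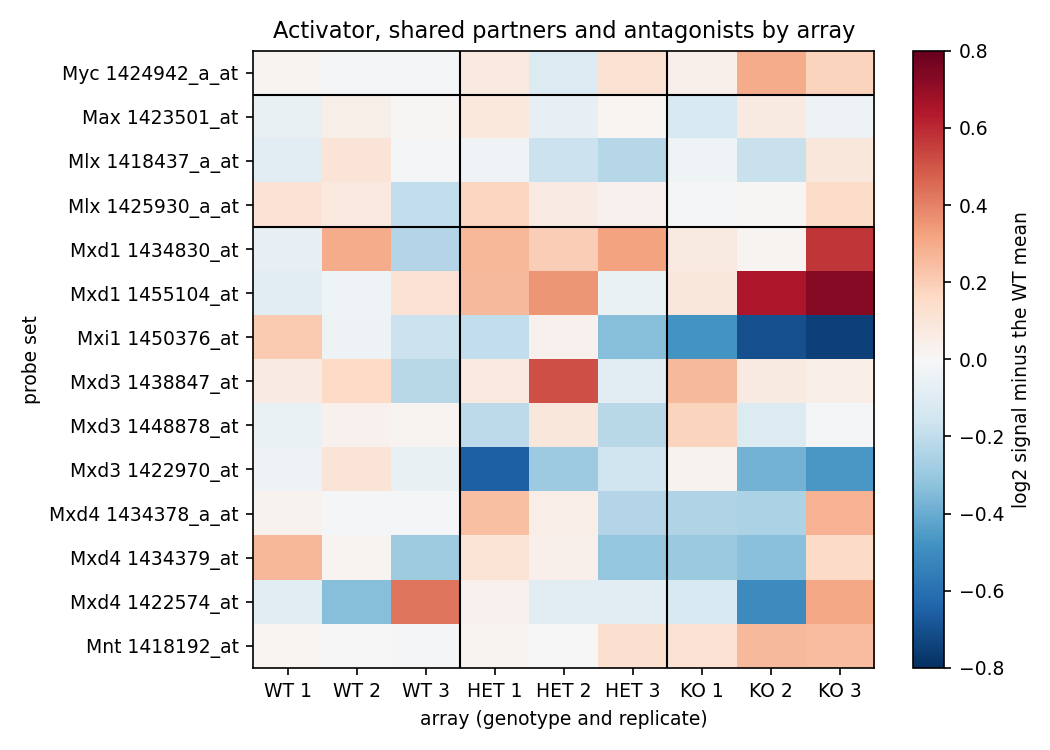
Log2 signal minus the WT mean (colour scale from -0.8 to 0.8) for the 14 tested network probe sets (rows, from the activator over the shared partners to the antagonists) on the 9 arrays (columns). The Mxi1 row is blue on all KO arrays, 1 Mxd1 row is dark red on KO replicates 2 and 3, and the Mxd4 rows change colour within a genotype.

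HET vs WT asks how 1 floxed allele bears on the network, and KO vs HET how the second one does. Limma called 0 of 14 network probe sets in HET vs WT, against 1 called probe set of all 23344 (0.00428%). An unadjusted p under 0.05 was reached there by 0 of the 14 and by 3.56% of all. In KO vs HET limma called 0 of 14 against 5.58% of all. An unadjusted p under 0.05 was reached there by 2 of the 14 (14.3%), Mxi1 and Mnt, which is below the 20.3% of all. The KO vs HET difference of Mnt was 0.16 (limma adjusted p = 0.212). For the distance of HET from the mean of the WT and KO levels, limma called 0 of 14 against 0.523% of all. For that distance, an unadjusted p under 0.05 was reached by 0 of the 14 and by 9.03% of all. The largest such distance by size was that of the dimmest tested Mxd3 probe set, -0.23 (limma adjusted p = 0.706). Signals did not overlap for 1 of 14 members in HET vs WT (background 9.38%) and for 1 of 14, Mxi1, in KO vs HET (background 24.4%). These comparisons share arrays and are not independent of each other.

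The genes whose pattern over the 9 arrays lay closest to that of Mxi1 were Pnpla8, a phospholipase gene, Cwc27, a splicing factor gene, and Hbb-bh1, annotated as an embryonic globin. Their mean absolute difference from Mxi1, in log2 deviations from each gene's own mean, was 0.087, 0.089 and 0.092, against a median of 0.29 over 10323 genes. Pnpla8 went from 901 ± 25.6 in WT to 875 ± 75.1 in HET and 646 ± 45.4 in KO, and Cwc27 from 1381 ± 71.8 to 1302 ± 136 and 866 ± 31.0 (SD, n = 3). Like Mxi1, Pnpla8, Cwc27 and Hbb-bh1 were lower on all KO arrays than on any WT or HET array. They were chosen for closeness to Mxi1 on these same arrays, so this likeness is no separate finding. The probe set of Hbb-bh1 is of a type that can match several transcripts, so its gene is uncertain. All 3 tested probe sets annotated to Hbb-bh1 were called in KO vs WT, at -0.85 to -0.66. The other tested probe set of Pnpla8, at -0.33, was not called.

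The partners and helpers of the network were read from lists of known genes, each gene by its brightest tested probe set. Over all 10331 genes so represented, 9.70% were called in KO vs WT, 4.79% higher and 4.91% lower, with a median difference of 0.011. Of the other partners of MAX and MLX, Mga (0.14, limma adjusted p = 0.270) and Mlxip (0.0016, limma adjusted p = 0.994) did not pass, and Mycl and Mlxipl were too dim to be tested.

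Of 12 MYC cofactor genes, 1 fell and 11 did not pass, with a median of -0.0058. The one that fell was Pim1, a kinase that works with MYC, from 6345 ± 114 in WT and 6285 ± 336 in HET to 4986 ± 448 in KO (SD, n = 3; log2 difference -0.35, SE 0.066, limma adjusted p = 0.00689). The call was lost with limma's variance trend left out (adjusted p = 0.0566). Actl6a (-0.20, limma adjusted p = 0.103) and Kat2a (0.30, limma adjusted p = 0.129) did not pass. Their tested probe sets ranged from -0.20 to 0.11 and from -0.16 to 0.30. Actl6a was called in 1 of 22 alternative fits, with each array centred on its median (limma adjusted p = 0.0445).

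Of 14 genes of the SIN3 corepressor, which the antagonists bring to DNA, 1 fell and 13 did not pass, with a median of -0.019. Sap30, a subunit that tethers histone deacetylase to SIN3, fell from 711 ± 69.6 in WT and 606 ± 47.8 in HET to 453 ± 74.1 in KO (SD, n = 3; log2 difference -0.65, SE 0.13, limma adjusted p = 0.00869). It was called in all 22 alternative fits. The SIN3 scaffold gene Sin3b (-0.13, limma adjusted p = 0.273) and the deacetylase gene Hdac2 (-0.21, limma adjusted p = 0.204) did not pass, and their probe sets ranged from -0.20 to 0.39 and from -0.21 to 0.12.

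Of 13 genes whose products bear on the stability of MYC protein, 1 fell and 12 did not pass, with a median of -0.010. Aurka, a mitotic kinase known to shield MYC family proteins from breakdown, fell by 0.28 (SE 0.076, limma adjusted p = 0.0437), and its call was lost without any single array (limma adjusted p from 0.0512 to 0.165) and in 3 of the 13 other alternatives. Axin1 (0.31, limma adjusted p = 0.134; its other probe set -0.37) and Usp28 (-0.23, limma adjusted p = 0.236) did not pass.

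Among 42 tested genes that MYC is known to induce, 1 fell and 41 did not pass. The median difference was -0.061, against 0.011 over all 10331 genes, and 28 values were negative and 14 positive. Whether these signs differ from those of all genes was not tested. The gene that fell was Ldha, which encodes lactate dehydrogenase, from 8390 ± 445 in WT to 7212 ± 230 in KO (SD, n = 3; log2 difference -0.22, SE 0.056, limma adjusted p = 0.0346). Its call was lost without WT replicate 2, WT replicate 3, KO replicate 1 or KO replicate 2 (limma adjusted p = 0.0745, 0.0963, 0.103 and 0.0903), without the filter on dim probe sets (0.0764) and without the variance trend (0.150). Apex1, a DNA repair nuclease gene (-0.17, limma adjusted p = 0.110; called with its probe sets averaged, 0.0449), and Fbl, a nucleolar methyltransferase gene (-0.18, limma adjusted p = 0.127), came next and did not pass. The share called, 1 of 42, was below the background of 9.70%, and this difference was not tested.

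Of 11 tested genes that MYC is known to repress, 1 rose, 2 fell and 8 did not pass, with a median of -0.21. Called or not, 8 values were negative and 3 positive. Cdkn1a, which encodes the cell cycle inhibitor p21, stood between 166 and 191 on the WT arrays, between 142 and 237 on the HET arrays and between 296 and 557 on the KO arrays. It rose by 1.09 (SE 0.23, limma adjusted p = 0.0144), with the call lost without WT replicate 2 (limma adjusted p = 0.0599). Cdkn1b, which encodes the inhibitor p27 and is also a known FOXO target, fell by 0.49 (SE 0.10, limma adjusted p = 0.0125; 0.0507 without WT replicate 1). Btg2, an antiproliferative gene, fell by 0.61 (SE 0.15, limma adjusted p = 0.0295). Its call was lost without WT replicate 1, WT replicate 2, KO replicate 1 or KO replicate 2 (limma adjusted p = 0.0924, 0.0990, 0.0863 and 0.108), without the variance trend (0.0859) and with the WT and KO arrays fitted alone (0.0526). The called genes thus moved in both directions.

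Of 11 genes known to act upstream of Myc in B cells, 1 rose, 2 fell and 8 did not pass, with a median of 0.043, and 1 of those that fell was Foxo1 itself. Syk, a kinase of the B cell receptor, fell by 0.28 (SE 0.075, limma adjusted p = 0.0407). Of its 4 tested probe sets 2 were called, and their differences ran from -0.32 to -0.0055 over all 4. Egr1, an immediate early factor gene, rose by 0.26 (SE 0.072, limma adjusted p = 0.0482). The calls of Syk and Egr1 on these brightest probe sets were near the threshold. For Syk it did not hold when any 1 WT array, KO replicate 2, KO replicate 3 or HET replicate 2 was left out (in that order limma adjusted p = 0.0689, 0.115, 0.117, 0.106, 0.113 and 0.0544), and in 11 of 22 alternatives in all. For Egr1 it did not hold when WT replicate 1, WT replicate 2, KO replicate 1, KO replicate 2 or any 1 HET array was left out (in that order limma adjusted p = 0.108, 0.186, 0.107, 0.161, 0.0531, 0.0653 and 0.0508). Its call was lost in 11 of 22 alternatives in all, among them median centring (limma adjusted p = 0.175).

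**Figure D4:**
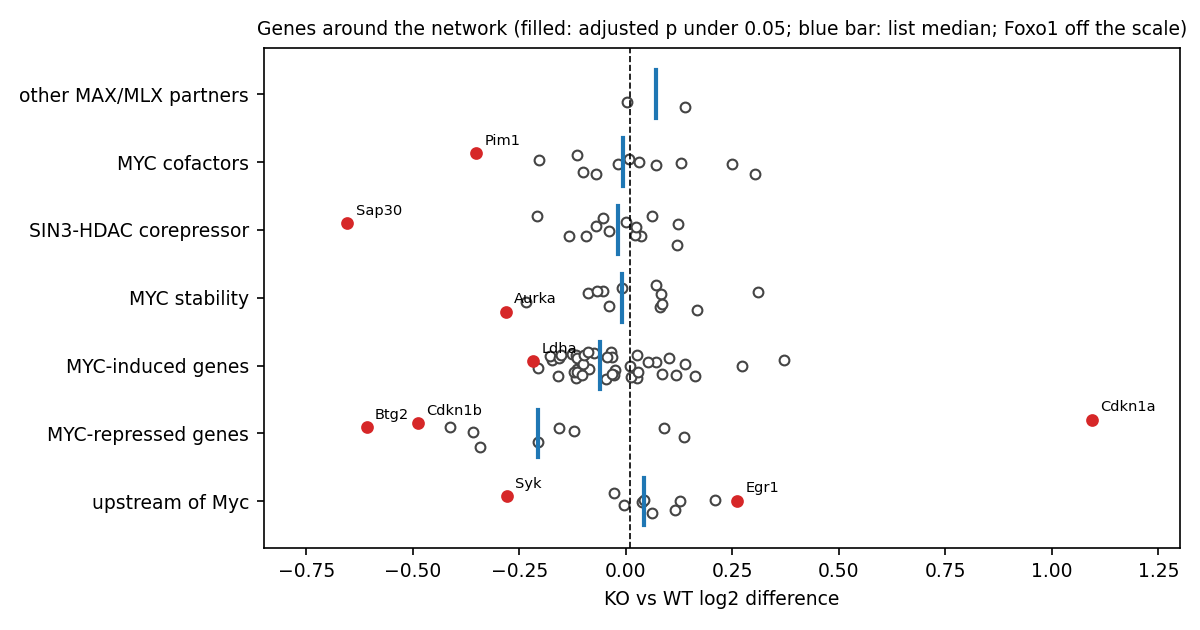
KO vs WT log2 difference (x axis) of the tested genes in 7 lists around the network, 1 point per gene; filled points have an adjusted p under 0.05, blue bars are list medians and the dashed line is the median of all genes. MYC-induced genes cluster near 0 with a median of -0.061, and Cdkn1a at 1.09 is the highest point; Foxo1 at -2.45 is off the scale.

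Markers were read to check the sorted cells. All 7 tested GC B cell markers were well above the array median, with mean WT signals from 2604 for Mef2b to 9163 for Bcl6, and 0 of 5 pan B cell markers were called by limma (1 at an unadjusted p under 0.05). Among GC markers in KO vs WT, Gcsam fell by 1.36 (limma adjusted p = 2.95e-05), Rgs13 fell by 0.25 (0.0223) and Fas rose by 0.30 (0.0215). The call of Fas was lost without WT replicate 1, 2 or 3 or KO replicate 3, with median centring and without the variance trend. Of the 2 GC markers that fell, 1 was called without WT replicate 2, WT replicate 3, KO replicate 1 or KO replicate 3, and without the variance trend. Markers of other cells also moved with the genotype. Of 6 plasma cell markers 4 rose. Of 5 naive and marginal zone markers 2 rose (Cr2 and S1pr3) and 1 fell (Fcer2a), and of 5 myeloid markers 2 rose (Cd68 and Lyz2). Over all 10331 genes, 4.79% were called higher and 4.91% lower. The myeloid marker Csf1r, at 2.46, did not pass (limma adjusted p = 0.0567). The T cell receptor complex genes Cd3e, Cd3d and Cd3g and the myeloid genes Itgam, Fcgr1 and Cd14 were too dim to be tested. With 1 array left out, 3 or 4 plasma cell markers rose, with 3 without any 1 WT array, KO replicate 2 or KO replicate 3, and the naive and marginal zone counts were the same each time. Myeloid markers called higher numbered 0 without WT replicate 3, 1 without WT replicate 2, KO replicate 1 or KO replicate 3, and 3 without WT replicate 1 or HET replicate 3. The summed signal of the listed plasma cell markers was 20332 to 21664 in WT, 21014 to 22495 in HET and 25413 to 27800 in KO. From WT to KO, mean signals rose for Slpi (3940 to 8493), Irf4 (3145 to 4794), Prdm1 (204 to 379) and Sdc1 (94.2 to 192). Jchain (10958 to 10538) and Xbp1 (2681 to 2597) did not pass, and Tnfrsf17 was too dim to be tested. The summed signal of the myeloid markers was 481 to 813, 632 to 1196 and 1091 to 1333, and that of the naive and marginal zone markers 7814 to 8180, 8381 to 9045 and 10383 to 12095. That of the T cell markers was 98.1 to 130, 82.0 to 225 and 54.2 to 148. Their part in the lower signal of Mxi1 was not tested.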

How the data were processed

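Sorted mouse GC B cells were measured on 9 Affymetrix Mouse 430.2 arrays after NuGEN amplification, per the labels' protocols. The deposited table gives 1 intensity (MAS5 signal, linear) per probe set and array; the authors used MAS5, per the submitters' processing notes, with no version stated in these sources. All arrays had the same trimmed mean. Precision is limited by the number of arrays.

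Probe sets were kept when at or above their array's median on at least 3 of 9 arrays (23344 of 45101, the 64 controls left out). The log2 offset of 2.09 is the 10th percentile of all signals. One limma 3.58.1 model (R 4.3.3, eBayes with trend, two-sided, Benjamini-Hochberg) covered all 9 arrays, and every adjusted p is from limma. It was fitted on probe sets because all probe sets of the network are described. It was also run on simulated data with independent normal errors, without array effects or shared pools, and no result here rests on that run.

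All network probe sets are named, along with up to 3 genes a list (lowest adjusted p in KO vs WT) and the 3 genes closest to a called member. The members and lists were chosen with earlier results of these data known. Replicates were numbered in order of deposition and not paired. Probe positions were not analysed here.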

Additional observations from a re-analysis of the deposited data

How the results depend on the processing

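Alternatives covered the offset, the filter, quantile normalization, median centring, limma without the variance trend, the 2 compared groups alone, averaging the probe sets of a gene, and each array left out; all results below are from limma. The fall of Mxi1 in KO vs WT kept its direction in all 22 and its call in 18, as given above. Leaving out 1 array gave 0 to 2 called network probe sets in KO vs WT, 976 to 1665 called probe sets over all in KO vs WT, 697 to 1177 in KO vs HET, 1 to 3 in HET vs WT, and 49 to 133 for the distance of HET from the midpoint. With quantile normalization, median centring or gene means, 1 network feature, Mxi1, was called in KO vs HET. Gene means gave 1185 calls over all and 2 in the network, Mxi1 and Mnt, in KO vs WT. Each of these 2 genes has 1 tested probe set, so none of their probe sets were averaged. Without the variance trend 825 probe sets were called in KO vs HET and 43 for the HET distance, and with the 2 groups alone 5 in HET vs WT.

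Changes of sign in KO vs WT were seen only for differences that had not passed. Quantile normalization gave -0.0050 for Mlxip and -0.069 for the dimmer Mlx probe set. Median centring gave -0.061 for Mlxip, -0.014 for the dimmer Mlx probe set and -0.041 for the middle Mxd3 probe set. Gene means gave -0.031 for Axin1, 0.0045 for Mlx and -0.041 for Mxd3. With 1 array left out, values ran from -0.054 to 0.053 for Mlxip, from -0.081 to 0.016 for Max, from -0.10 to 0.028 and from -0.049 to 0.11 for the brighter and dimmer Mlx probe sets, from -0.058 to 0.085 for the middle Mxd3 probe set, and from -0.24 to 0.021 and from -0.32 to 0.11 for the brightest and dimmest tested Mxd4 probe sets. The causes were not tested. Signals near background and 3 arrays per genotype limit what could be measured, and Mycn most. No paired analysis was possible because no 2 genotypes share a number in the labels.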
